A study of Mus musculus with 6 samples.

Results

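The comparison described here set 2 gene-corrected mouse induced pluripotent stem (iPS) cell lines against 2 uncorrected ones. The members are 4 of the 6 arrays of the series, chosen by their labels as the arrays of the FAHgc-iPS cells, lines #7.1 and #7.2, and of the FAH-/- iPS cells, lines #4 and #7. All 4 lines descend from FAH-/- fetal fibroblasts of the C57BL/6 background that had been transduced with retroviral Oct4, Sox2, Klf4 and c-Myc. Lines #4 and #7 are separate colonies. Lines #7.1 and #7.2 were both made from line #7 at an early passage, with a self-inactivating lentiviral vector that expresses murine FAH, linked by a 2A peptide to EGFP, from the spleen focus-forming virus promoter, and each was subcloned by its EGFP fluorescence. Each line is 1 clone and was arrayed once, so the gene-corrected group holds 2 sister clones of 1 parent, and the uncorrected group holds that parent and a line of another origin. By the paper's quantitative PCR, line #7.1 carried many more vector copies than line #7.2, and line #4 more retroviral insertions than line #7. The part of copy number in the differences was not tested. Vector transduction, subcloning and the added time in culture came together in lines #7.1 and #7.2 and cannot be told apart. The endogenous Fah alleles stay disrupted in all 4 lines, all of which were grown on fibroblast feeder cells. The 2 other arrays, of FAH-/- embryonic fibroblasts (MEFs) and of OG2 ES cells, which carry an Oct4-GFP reporter, give levels for context only.

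FAH, fumarylacetoacetate hydrolase, is the last enzyme of tyrosine breakdown, and it acts mainly in liver and kidney. Its loss causes hereditary tyrosinemia, in which toxic intermediates damage hepatocytes. Mouse iPS cells depend, as ES cells do, on a core of Oct4, Sox2 and Nanog, and respond to LIF, FGF, Wnt and Nodal signals. Integrating vectors can act on neighbouring genes, and pluripotent cells often silence viral promoters, so genes near known integration sites, silencing factors and interferon response genes were followed next to the pluripotency genes.

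Signals are log2 intensities after background correction and quantile normalization, on which 1 unit is a 2-fold difference, and every difference is the mean of lines #7.1 and #7.2 minus the mean of lines #4 and #7 unless another pair is named. A gene was tested if its brightest probe exceeded the background of at least 1 of the 4 arrays, which left 9792 of 16593 genes, 7411 of them above background on all 4. The median exported signal was 113 in each gene-corrected line, against 116 in line #4 and 98.7 in line #7, and 11984 to 12258 of 25697 probes were above background. The estimated background was 101 on the arrays of both gene-corrected lines, against 103 for line #4 and 89.1 for line #7. Its part in the differences was not tested. All 9 markers of undifferentiated cells were above background in all 4 lines, and all 5 liver markers were at background. Of 12 fibroblast markers, 8 to 9 were above background in each line, with a summed linear signal of 3430 and 3640 in lines #7.1 and #7.2, against 4200 and 3530 in lines #4 and #7, and 65900 in the MEFs. Col1a2, Postn and Pdgfrb were at background in all 4 iPS cell lines. In a bulk culture, fewer cells of a type and less RNA per cell cannot be told apart.

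No gene passed the test between the gene-corrected and the uncorrected lines. By limma with Benjamini-Hochberg adjustment, 0 of 9792 genes (0%) met both limits for a call, a 2-fold difference and an adjusted p under 0.05, and the lowest adjusted p was 0.94. Without line #7, 29 genes were called, and without line #7.1, 1 was called (Mest). At an unadjusted p under 0.05 there were 450 genes, 191 higher and 259 lower in the gene-corrected lines. The 95% interval of the difference lay within 2-fold in either direction for 9730 genes (99.4%) and within 1.5-fold for 8616 genes (88%), and the median standard error was 0.14. The intervals here and below are for single genes, without adjustment for the number of genes or for choosing genes by their values. With 2 arrays against 2 the exact permutation test of a single gene cannot go below a two-sided p of 0.33. Against the parental line #7 alone, the gene-corrected lines again had 0 called genes (0%), with a lowest adjusted p of 0.14 and 772 genes at an unadjusted p under 0.05 in the limma fit. In the same fit, line #4 differed from line #7 by 38 called genes (0.388%), 23 higher and 15 lower in line #4. Line #7 and line #4 each have 1 array in that fit and are assumed to vary like the gene-corrected lines.

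The 2 uncorrected lines differed more from each other than the gene-corrected lines did. Over the genes tested, the SD of the difference was 0.195 between lines #7.1 and #7.2, 0.220 between #7.1 and #7 and 0.193 between #7.2 and #7, against 0.273 between #4 and #7. At least 1.5-fold above line #7 were 39 genes in line #7.1, 14 in line #7.2 and 197 in line #4, and at least 1.5-fold below it were 80 genes in line #7.1, 26 in line #7.2 and 144 in line #4. Among the 38 genes called between lines #4 and #7, the mean of the gene-corrected lines lay nearer line #7 in 36, and both gene-corrected lines were within 1.5-fold of line #7 in 28. Over all genes tested, the gene-corrected mean lay nearer line #7 in 55.9%. These counts share the array of line #7 with the comparison that chose the genes and are given as a description.

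The genes called between lines #4 and #7 included signalling genes of the early embryo. Bmp4, a ligand that supports self-renewal of mouse ES cells together with LIF, had 7.44 and 7.51 in lines #7.1 and #7.2, against 8.73 in line #4 and 7.44 in line #7. Gbx2, a homeobox gene downstream of LIF, had 9.40 and 9.06 in lines #7.1 and #7.2, against 10.54 in line #4 and 9.19 in line #7. Fgf5, a marker of the primed epiblast, was low in line #4 (6.69), against 7.63 and 8.22 in lines #7.1 and #7.2 and 8.13 in line #7. In each case the gene-corrected lines stood with their parent. Il22ra1 and Ccl11 were also among the 38, and in these line #7.1 or both gene-corrected lines stood nearer line #4. The 3 Pramel genes among the 38 belong to a family of near-identical copies, which makes their probes uncertain.

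**Figure D1:**
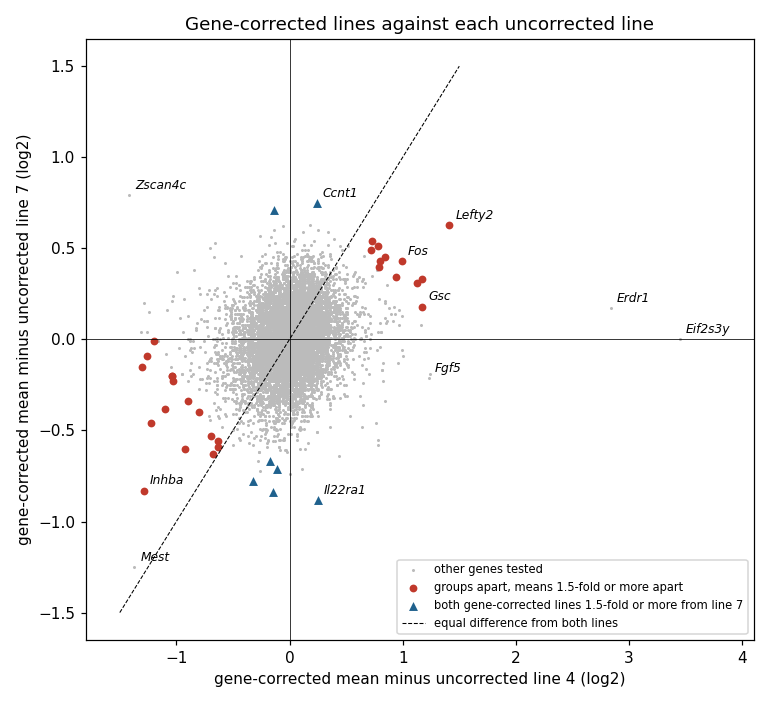
Each point is a gene, placed by the mean log2 signal of the gene-corrected lines minus that of line #4 (horizontal axis) and minus that of line #7 (vertical axis); the dashed line marks equal differences. Red circles are the 28 genes with the groups apart and means at least 1.5-fold apart, all of which lie farther from line #4 than from line #7, and blue triangles are the 7 genes at least 1.5-fold from line #7 in both gene-corrected lines.

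The genes carrying the largest group differences fell into 2 kinds, and the first was set by 1 line. Only 5 genes had group means at least 2-fold apart: Eif2s3y, Erdr1, Lefty2, Inhba and Mest. Eif2s3y, a translation initiation factor subunit encoded on the Y chromosome, had signals of 9.47 and 9.74 in lines #7.1 and #7.2, against 6.16 in line #4 and 9.61 in line #7. Line #4 alone was at background, and the difference of 1.73 (95% interval 0.00 to 3.45) came with a difference of 0.00 from the parent. Kdm5d, a Y-linked histone demethylase, had 6.70 and 6.93 in the gene-corrected lines, against 5.99 in line #4 and 6.98 in line #7. Line #4, which is described as male, was at background for both genes. Uty, a Y-linked relative of a histone demethylase, was above background in all 4 lines, with 6.78 and 6.72 in lines #7.1 and #7.2, against 6.36 in line #4 and 6.54 in line #7. It was lowest in line #4, near the 6.27 of OG2 ES cells, where it was at background. Zfy1, also Y-linked, had 6.34 and 6.37 in lines #7.1 and #7.2. It was at background in line #4 (6.06) and in line #7 (6.33). Erdr1, which lies in the pseudoautosomal region shared by X and Y, was likewise low in line #4 alone, with 8.52 and 9.51 in lines #7.1 and #7.2, against 6.18 in line #4 and 8.85 in line #7. The paper had already named Eif2s3y, Erdr1 and Jarid1d (Kdm5d) as genes that differ between lines #4 and #7.

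The difference of Mest, which is imprinted and silent on the maternal chromosome, was set by line #7.2. Its signal was 9.95 in line #7.1 and 6.07 in line #7.2, against 9.38 in line #4 and 9.26 in line #7. The group difference of -1.31 therefore describes neither gene-corrected line, and its other 2 probes were also lowest in line #7.2, with 5.92 and 6.15 there and 7.45 to 8.74 in the other lines. Among 22 imprinted genes tested, none was called, 2 had both gene-corrected lines above both uncorrected lines (9.09%) and 4 below (18.2%), against 17.4% and 16.7% of all genes tested. With median scaling of the arrays these counts were 3 and 3, against 2322 and 846 of all 9792 genes tested. Nnat, a proteolipid of developing brain, was among the higher ones (7.27 and 7.38 in lines #7.1 and #7.2, against 6.67 and 6.99 in lines #4 and #7), and Impact and Mkrn3 were among the lower ones.

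Lines #7.1 and #7.2 were at least 2-fold apart from each other in 7 genes: Mest, Klf9, Xlr4a, Dcn, Mmp3, Saa3 and Serpina3n. Saa3, an acute phase protein, had 7.27 and 8.82 in lines #7.1 and #7.2, against 7.26 and 8.62 in lines #4 and #7. Mmp3, a matrix protease, had 9.09 and 10.26 in lines #7.1 and #7.2, against 9.04 and 10.15 in lines #4 and #7. For both genes each group held 1 low and 1 high line, line #7.1 being close to line #4 and line #7.2 close to line #7. The group difference was 0.10 for Saa3 (95% interval -0.95 to 1.15) and 0.08 for Mmp3 (-0.76 to 0.92). Zscan4c, which marks the few ES cells that pass through a 2-cell-like state, likewise varied within both groups, with 8.34 and 7.38 in lines #7.1 and #7.2, against 9.28 and 7.07 in lines #4 and #7.

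**Figure D2:**
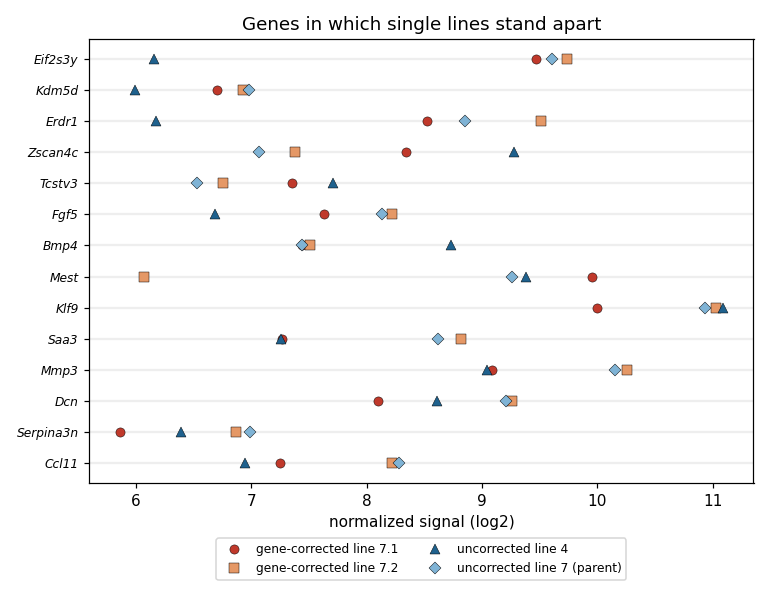
Normalized log2 signal (horizontal axis) of 14 genes in the 4 lines, 1 symbol per array, in genes chosen after their values were seen because 1 or 2 lines stand apart. Line #4 is alone at the low end for Eif2s3y, Kdm5d and Erdr1, line #7.2 is alone at 6.07 for Mest, and Saa3, Mmp3 and Ccl11 put lines #7.1 and #4 at the low end together.

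The second kind of gene had the 2 groups apart. Both gene-corrected lines lay above both uncorrected lines in 1699 genes (17.4%) and below both in 1638 genes (16.7%), mostly by small amounts. Together these were 34.1% of the genes tested. A random order of 4 arrays would put the groups apart with a probability of 0.33, so these counts are a description only. With group means also at least 1.5-fold apart there were 28 genes, 12 higher (0.123%) and 16 lower (0.163%) in the gene-corrected lines. All 28 were above background on all 4 arrays. With each array scaled to 1 median in place of quantile normalization, the groups were apart in 2322 genes with the gene-corrected lines higher and 846 with them lower, and the 1.5-fold genes split into 27 higher and 4 lower. Without line #7 the 28 genes became 260, and without line #7.2 they became 89. In all 28 genes the gene-corrected mean was farther from line #4 than from line #7, which held for 58.4% of the 3337 genes with the groups apart. Only 5 of the 28 were also at least 1.5-fold from line #7 on average.

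Among these 28 genes, signals of the Nodal pathway stood on both sides. Nodal and activin are ligands that share receptors and Smad2/3, and Lefty1 and Lefty2 are secreted inhibitors that Nodal itself induces. Lefty2 had 11.23 and 10.53 in lines #7.1 and #7.2, against 9.47 and 10.25 in lines #4 and #7, a difference of 1.02 (95% interval 0.43 to 1.60). Lefty1 had 10.74 and 10.15 in lines #7.1 and #7.2, against 9.71 and 9.90 in lines #4 and #7, a difference of 0.64 (0.22 to 1.05). The groups did not overlap for either gene, although line #7.2 exceeded line #7 by less than line #7.1 exceeded line #7.2. Inhba, the subunit that forms activin A, had 6.98 and 7.80 in lines #7.1 and #7.2, against 8.68 and 8.22 in lines #4 and #7, a difference of -1.06 (-1.61 to -0.52).

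Nodal itself (8.46 and 8.34 in lines #7.1 and #7.2, against 7.95 and 8.22 in lines #4 and #7) and Skil, which encodes a Smad corepressor (9.85 and 9.82, against 9.17 and 9.79), also had the groups apart. The receptors Acvr2a and Acvr2b, the coreceptor Tdgf1, Smad2, Smad3 and the cofactor Foxh1 did not, and their differences ran from -0.08 to 0.09. Gdf3 (-0.03) and Furin (0.14) overlapped as well. Inhbb, another activin subunit, also overlapped but differed by -0.42. It had 7.34 and 6.92 in lines #7.1 and #7.2, against 8.17 in line #4 and 6.92 in line #7. Of 14 genes of the list tested, 0 were called, 4 had the gene-corrected lines higher (28.6%) and 1 lower (7.14%), against 17.4% and 16.7% of all genes, and the median difference was 0.03, against 0.00 over all genes. The counts under median scaling were 6 and 1, against 2322 and 846 of all 9792 genes tested. Gsc, a homeobox gene of the primitive streak, had 7.63 and 7.48 in lines #7.1 and #7.2, against 6.39 and 7.38 in lines #4 and #7. Fgf8, a growth factor of the same region, had 8.06 and 8.05 in lines #7.1 and #7.2, against 7.12 and 7.71 in lines #4 and #7. For Gsc the gene-corrected lines lay 0.26 and 0.11 above their parent, and line #4 alone was low.

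Fos, a subunit of the AP-1 transcription factor that growth factors induce within minutes, had 9.18 and 9.19 in lines #7.1 and #7.2, against 8.19 and 8.76 in lines #4 and #7. Its difference was 0.71 (95% interval 0.31 to 1.10). Klf4, a pluripotency factor that the reprogramming vectors also carried, had 10.20 and 9.95 in lines #7.1 and #7.2, against 9.30 and 9.57 in lines #4 and #7, a difference of 0.65 (0.31 to 0.98), while its other 2 probes gave 0.27 and 0.20. Where the Klf4 probes lie relative to the vector cDNA is not known. The other genes with higher signals were Phf13, a reader of histone methylation, Rps15a, a ribosomal protein whose probe may also detect processed copies, Rdh11, a retinol dehydrogenase, Acss2, which makes acetyl-CoA from acetate, Msmo1 of cholesterol synthesis and Scd2, a fatty acid desaturase, with differences between 0.60 and 0.75.

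The 15 lower genes other than Inhba had differences between -0.84 and -0.59. Mterf1a, a mitochondrial transcription terminator, was the farthest apart of them, with 8.40 and 8.30 in lines #7.1 and #7.2, against 9.57 and 8.81 in lines #4 and #7, and its other 2 probes gave -0.74 and -0.64. Tefm, the mitochondrial transcription elongation factor, had 7.93 and 7.97 in lines #7.1 and #7.2, against 9.21 and 8.04 in lines #4 and #7. For Tefm, Csn3 (kappa-casein) and Zfp985 the gene-corrected lines were within 0.20 of line #7, and line #4 alone was high. Cryab, a small heat shock protein of the crystallin family, was the opposite case, with 6.85 and 6.73 in lines #7.1 and #7.2, against 7.42 and 7.35 in lines #4 and #7. Alg8, a glucosyltransferase of N-glycan synthesis, had -0.61 on its brightest probe, but its other 3 probes gave -0.11 to -0.20.

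**Figure D3:**
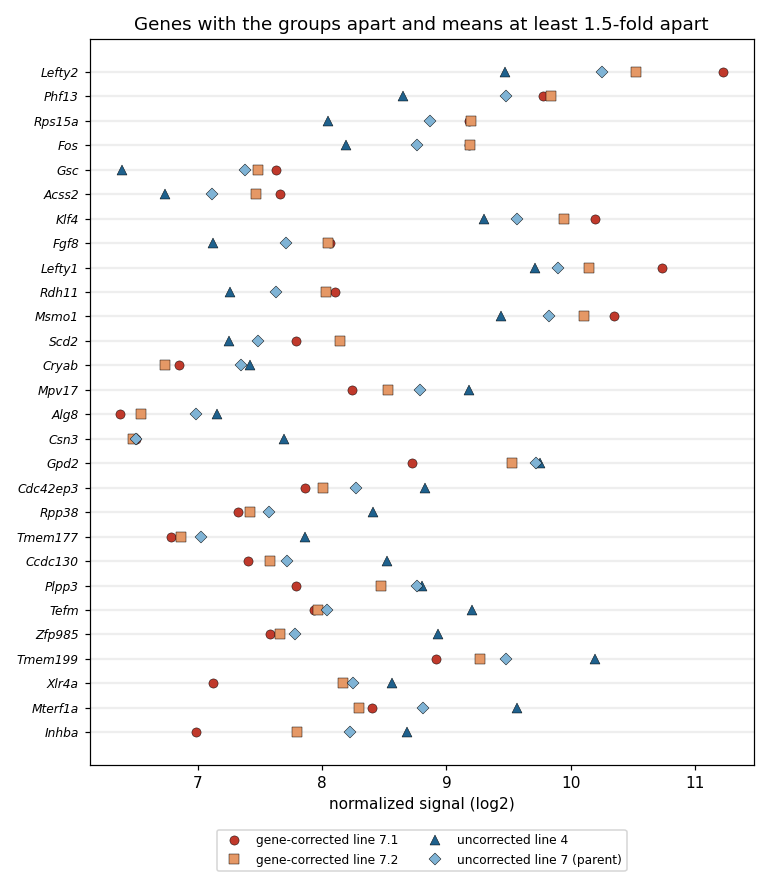
Normalized log2 signal (horizontal axis) of the 28 genes with the groups apart and means at least 1.5-fold apart, ordered from the highest difference (Lefty2, 1.02) to the lowest (Inhba, -1.06), with 1 symbol per array. The red and orange symbols of the gene-corrected lines lie on 1 side of the blue symbols in every row, and the dark triangle of line #4 is the outermost symbol on the other side.

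The number of genes that stood apart from the parental line in both gene-corrected lines depended on the processing. Both were at least 1.5-fold above line #7 in 2 genes (0.0204%) and at least 1.5-fold below it in 5 (0.0511%). The total of 7 became 158 with an offset of 16, 64 with the authors' normalized values and 2 without background correction, and with median scaling 20 genes were higher and 3 lower. Ccnt1, cyclin T1 of the kinase that releases paused RNA polymerase II, had 8.35 and 8.25 in lines #7.1 and #7.2, against 7.55 in line #7 and 8.06 in line #4. Dusp14, a phosphatase of MAP kinases, had 7.38 and 7.44 in lines #7.1 and #7.2, against 6.70 in line #7 and 7.54 in line #4. Il22ra1, a subunit of the interleukin 22 receptor, had 6.83 and 6.63 in lines #7.1 and #7.2, against 7.61 in line #7 and 6.48 in line #4. Bst2 (tetherin), an interferon-induced protein that holds budding enveloped viruses at the cell surface, had 8.13 and 8.22 in lines #7.1 and #7.2, against 8.85 in line #7 and 8.35 in line #4. In Il22ra1 and Dusp14 line #4 lay beyond both gene-corrected lines, and in the other 5 genes it lay between them and line #7. Hyal1, a hyaluronidase, was also lower, and Kcnh6 and Ghrhr were above background in line #7 only. None of the 7 was called.

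Cholesterol synthesis had the highest median difference of the lists with more than 4 tested genes. Most of the 15 genes tested belong to the route from acetyl-CoA to cholesterol or to its control by Srebf2, the transcription factor that sterol depletion activates. None of the 15 was called. Of the 15, 8 had both gene-corrected lines above both uncorrected lines (53.3%) and 0 below, against 17.4% and 16.7% of all genes. The median difference was 0.30, against 0.00 over all genes. Set against each uncorrected line, the median was 0.46 against line #4 and 0.09 against line #7. Msmo1, a sterol methyl oxidase, had 10.35 and 10.11 in lines #7.1 and #7.2, against 9.44 and 9.83 in lines #4 and #7, a difference of 0.60 (95% interval 0.23 to 0.96). Sqle, squalene epoxidase, had 10.91 and 10.66 in lines #7.1 and #7.2, against 10.12 and 10.47 in lines #4 and #7, and its other probe gave 0.34. Cyp51, a sterol demethylase, had 9.46 and 9.32 in lines #7.1 and #7.2, against 8.55 in line #4 and 9.28 in line #7. For Cyp51, as for Hmgcs1, Insig1, Nsdhl and Stard4, line #4 alone was low. Dhcr7, which makes the last step to cholesterol, and Srebf2 exceeded both uncorrected lines by similar amounts (0.34 and 0.37 against line #4, 0.40 and 0.27 against line #7). The list median was positive under every scaling tried, from 0.25 to 0.36. The counts under median scaling were 13 higher and 0 lower, against 2322 and 846 of all 9792 genes tested.

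**Figure D4:**
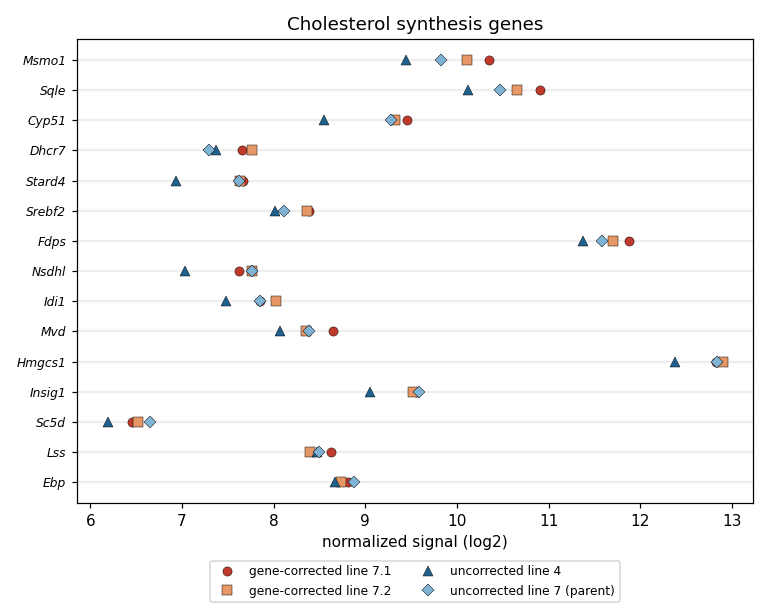
Normalized log2 signal (horizontal axis) of the 15 cholesterol synthesis genes tested, ordered by the group difference, with 1 symbol per array. Line #4 is the lowest symbol in most rows, and in Msmo1, Sqle, Fdps and Srebf2, among others, both gene-corrected lines also lie above line #7.

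The start regions of Hmgcs1, which makes the substrate of the rate-limiting step, and of Fos are shown because each holds a known regulatory element, of sterol control for Hmgcs1 and of growth and stress signals for Fos. They are RefSeq sequences of build GRCm38.p6, from 250 bases before to 50 after the transcription start. Capitals mark TCACNCCAC, a form of the sterol regulatory element bound by the Srebf2 protein, in the Hmgcs1 region, and TGACGT, the core of the cAMP response element bound by CREB and ATF factors, in the Fos region. Both motifs were searched on both strands, and the Hmgcs1 region also holds TGACGT 1 time on the minus strand, left in lower case.
Hmgcs1, chr13:119690101-119690400, plus strand: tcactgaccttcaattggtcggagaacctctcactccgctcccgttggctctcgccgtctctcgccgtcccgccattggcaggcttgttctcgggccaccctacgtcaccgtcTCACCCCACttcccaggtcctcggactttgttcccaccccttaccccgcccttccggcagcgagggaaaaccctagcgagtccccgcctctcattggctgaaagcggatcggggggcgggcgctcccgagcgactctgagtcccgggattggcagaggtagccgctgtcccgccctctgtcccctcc
Fos, chr12:85473640-85473939, plus strand: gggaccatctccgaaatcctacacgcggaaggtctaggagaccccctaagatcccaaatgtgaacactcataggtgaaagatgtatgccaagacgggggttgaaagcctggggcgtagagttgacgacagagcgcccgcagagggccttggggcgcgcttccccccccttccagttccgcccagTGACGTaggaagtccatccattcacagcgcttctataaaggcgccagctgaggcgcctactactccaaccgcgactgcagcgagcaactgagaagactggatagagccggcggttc
The first motif is in 1.24% and the second in 7.51% of 32851 start regions of the same length. Each match describes these letters only. Hmgcs1 had 12.83 and 12.90 in lines #7.1 and #7.2, against 12.38 and 12.84 in lines #4 and #7, so the gene-corrected lines stood with their parent.

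The unfolded protein and amino acid response list had 28 genes tested, of which 14 had the gene-corrected lines higher (50%) and 2 lower (7.14%), against 17.4% and 16.7% of all genes, with a median of 0.13 (0.09 against line #4, 0.15 against line #7). Atf3, a stress-induced transcription factor, had 7.25 and 7.11 in lines #7.1 and #7.2, against 6.82 and 6.71 in lines #4 and #7, a difference of 0.42 (95% interval 0.12 to 0.71). Atf4, the activator that amino acid shortage induces, had 9.22 and 9.17 in lines #7.1 and #7.2, against 8.58 and 9.06 in lines #4 and #7. The chaperones Hspa5 and Hsp90b1 differed by 0.18 and 0.15, and Ddit3, an effector of prolonged stress, by -0.23 with overlapping groups. By the same count, 5 of 12 Wnt target genes were higher (41.7%) and 1 lower (8.33%), with a median of 0.14, among them Sp5 (8.39 and 8.42 in lines #7.1 and #7.2, against 7.85 and 8.21 in lines #4 and #7) and Axin2, a feedback inhibitor, which differed by 0.30. Of 21 glycolysis and hypoxia genes 10 were higher (47.6%) and 2 lower (9.52%), with a median of 0.09, where the shares over all genes are again 17.4% and 16.7%. Pdk1, which restrains pyruvate entry into mitochondria, differed by 0.47 (0.11 to 0.83). No gene of these lists was called, and none of their medians reached 0.2 under any scaling tried. Median scaling gave 16 higher and 0 lower for the unfolded protein list, 7 and 1 for Wnt targets and 13 and 2 for glycolysis. Over all 9792 genes tested it gave 2322 and 846.

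The genes that maintain pluripotency had a median difference near 0. Of 25 tested, 0 were called, 5 had the gene-corrected lines higher (20%) and 5 lower (20%), against 17.4% and 16.7% of all genes, and the median was 0.01. With median scaling the split was 6 higher and 1 lower, against 2322 and 846 of all 9792 genes tested. The median was then 0.05 for the list and for all genes. Oct4 (Pou5f1) had 12.01 and 12.01 in lines #7.1 and #7.2, against 12.44 and 12.19 in lines #4 and #7, a difference of -0.30 (95% interval -0.61 to 0.01), and its other probe gave -0.08. Nanog had 11.68 and 11.47 in lines #7.1 and #7.2, against 11.52 and 11.42 in lines #4 and #7, with overlapping groups. Sox2 also overlapped on its brightest probe, at 9.16 and 9.04 in lines #7.1 and #7.2, against 8.96 and 9.12 in lines #4 and #7. Its other probe gave 0.21 without overlap, at 8.91 and 8.94 in lines #7.1 and #7.2, against 8.74 and 8.68 in lines #4 and #7. For Nanog the interval was -0.20 to 0.41 and for Sox2 -0.24 to 0.37. Esrrb and Sall4 lay slightly higher in both gene-corrected lines, and L1td1, Lin28a, Fbxo15 and Fgf4 slightly lower, none by more than 0.28.

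Fah itself had 7.12 and 7.00 in lines #7.1 and #7.2, against 7.12 and 7.25 in lines #4 and #7, a difference of -0.12 (95% interval -0.42 to 0.17). The signal was 8.91 in OG2 ES cells and 6.30 in the MEFs. The position of the Fah probe within the transcript was not analysed here. Lines #4 and #7 carry no FAH vector, so their signals of 7.12 and 7.25 cannot read vector transcripts. The signals of lines #7.1 and #7.2, which carry the vector, were no higher. The paper's quantitative RT-PCR found FAH mRNA in a gene-corrected line with this vector. Whether the array probe detects vector transcripts was not tested, so its signal is no measure of vector expression. Of 13 genes of tyrosine and phenylalanine breakdown tested, 0 had the gene-corrected lines higher and 2 lower (15.4%, against 16.7% of all genes), Hpd and Gstz1. With median scaling 3 were higher and 2 lower, against 2322 and 846 of all 9792 genes tested. Hpd was above background on 1 of the 4 arrays only.

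Genes tied to vector integration and silencing gave small differences as well. None of the genes was called. Of 18 proto-oncogenes known from integration sites, 1 had the gene-corrected lines higher (5.56%) and 7 lower (38.9%), against 17.4% and 16.7% of all genes, with a median of -0.05. With median scaling 3 were higher and 6 lower, against 2322 and 846 of all 9792 genes tested. Lmo2 and Mecom, which retroviral vectors have activated in patients, differed by 0.08 and 0.10 with overlapping groups, and Mecom was above background on 1 array only. Ets1, an Ets family transcription factor, had 6.84 and 6.93 in lines #7.1 and #7.2, against 7.55 and 7.23 in lines #4 and #7. Notch1 was the 1 gene higher, by 0.24. Of 16 genes of vector silencing and heterochromatin, 6 were higher (37.5%, against 17.4% of all genes) and 2 of the 16 were lower, where all genes gave 16.7%. Their counts under median scaling were again 6 and 2, while those of all 9792 genes tested were 2322 and 846. Trim28, the corepressor that silences retroviral sequences in ES cells, had 12.99 in both gene-corrected lines, against 12.96 and 12.65 in lines #4 and #7, and Zfp809, which recruits it to retroviral DNA, had 6.90 and 6.86 in lines #7.1 and #7.2, against 7.38 and 7.09 in lines #4 and #7. Of 24 genes of the interferon response and nucleic acid sensing, 5 were higher (20.8%) and 2 lower (8.33%), with a median of 0.16 against line #4 and -0.13 against line #7. Isg15, a ubiquitin-like protein that interferon induces, had 7.01 and 7.27 in lines #7.1 and #7.2, between 6.78 in line #4 and 7.49 in line #7. The share higher was near the 17.4% of all genes. With median scaling 8 were higher and 2 lower, against 2322 and 846 of all 9792 genes tested. Of 22 p53 targets 7 were higher (31.8%) and 2 lower (9.09%), against 17.4% and 16.7% of all genes, and Bbc3 (Puma), a mediator of apoptosis, had 10.34 and 10.52 in lines #7.1 and #7.2, against 9.50 in line #4 and 10.29 in line #7. The p53 counts under median scaling were 9 and 1, against 2322 and 846 of all 9792 genes tested.

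Genes of fibroblasts and mesenchymal cells leaned the other way. Of 28 tested, 1 had the gene-corrected lines higher (3.57%) and 9 lower (32.1%), against 17.4% and 16.7% of all genes. The median was -0.12, and against the parental line #7 alone it was -0.04. With median scaling 2 were higher and 7 lower, against 2322 and 846 of all 9792 genes tested. The list median was then -0.06, against 0.05 over all genes. Lox, which crosslinks collagen, had 7.20 and 7.33 in lines #7.1 and #7.2, against 7.74 and 7.62 in lines #4 and #7, and 13.21 in the MEFs. Igfbp7, a secreted binding protein of insulin-like growth factors, had 9.50 and 9.82 in lines #7.1 and #7.2, against 10.05 and 10.07 in lines #4 and #7, and 13.24 in the MEFs. Col1a1, Thy1 and Vim had overlapping groups. The summed signal of the fibroblast markers, given above, was likewise highest in line #4 among the 4 lines, but was higher in line #7.2 (3640) than in its parent line #7 (3530), and the part of feeder cells in these differences was not tested.

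**Figure D5:**
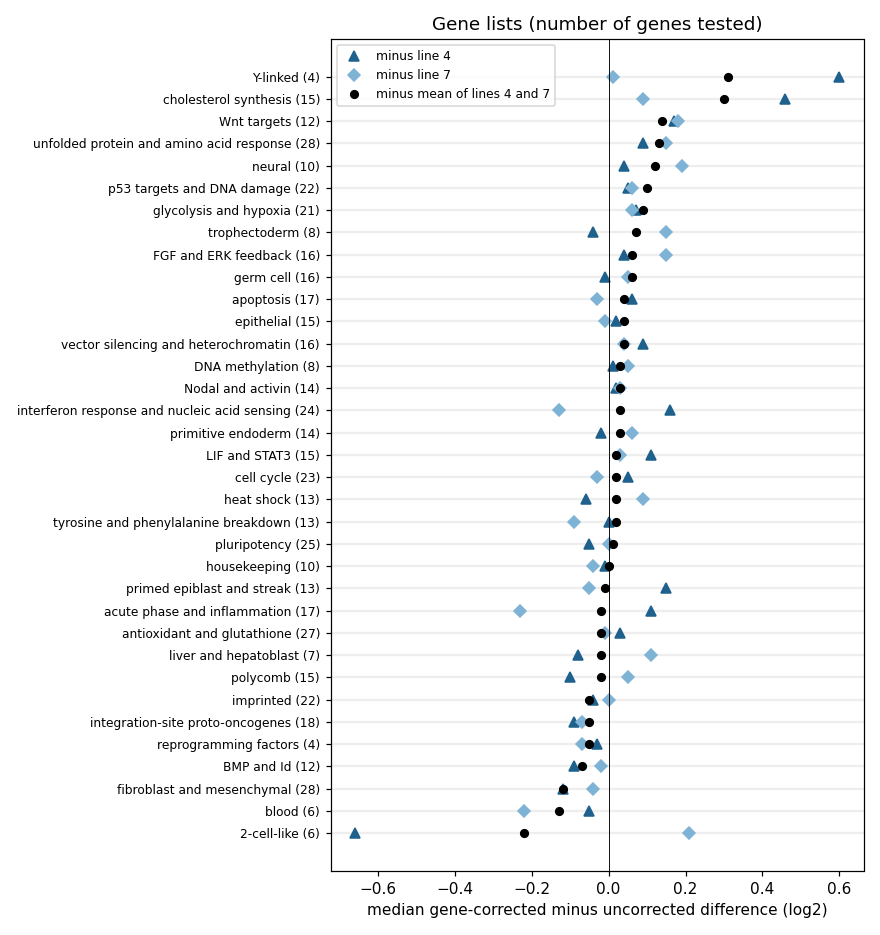
Median log2 difference (horizontal axis) of the gene-corrected mean from line #4, from line #7 and from the mean of both, for 35 gene lists with the number of genes tested in brackets. Cholesterol synthesis lies at 0.46 from line #4 and 0.09 from line #7, the 2-cell-like list at -0.66 and 0.21, and fibroblast genes at -0.12 and -0.04.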

How the data were processed

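Each sample was total RNA, amplified and labelled, on 1 Illumina mouse-8 V2 array. Per the labels and the paper's methods, the authors exported intensity values from BeadStudio (version not given in the sources used here), 1 file per sample. The deposited intensity values used here are those before background subtraction, with no detection p-values. The deposited table of background-subtracted, cubic spline normalized intensity served to set the background and as an alternative. Using limma 3.58.1 (R 4.3.3), signals were corrected by the normexp method (offset 50) before quantile normalization over 6 arrays and log2 transformation. The background of an array was the exported signal at which the deposited normalized value is 0, and a probe exceeded it by more than 2.326 noise SDs (noise SD 5.27 to 7.53). Of 25697 probes, 23978 name 1 gene and 1719 none; 23962 matched RefSeq (GRCm38.p6), and the brightest probe stood for each gene. The arrays' number limits the precision, and p-values cover only the spread among the 4 cultures, which may be partly technical.

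lmFit and eBayes compared the groups 2 against 2 (2 residual degrees of freedom) and, with 3 groups, against line #7 (1 residual degree of freedom), with Benjamini-Hochberg adjustment. Gene lists (35 lists, 713 genes, 613 measured) were described without a test. Members, lists and comparisons were chosen with earlier results of these data known. Named genes were Fah and the pluripotency and reprogramming factors; the 12 largest differences in each direction whose gap between groups exceeded the range within each; up to 8 in each direction at least 1.5-fold from line #7 in both gene-corrected lines; up to 3 per list with the groups apart; and Y-linked genes. Others, such as the remaining genes at least 1.5-fold apart and list members, were named after their values were seen. Background correction, offset, normalization, filter, probe choice, fold threshold, variance prior and left-out arrays were varied. The fits were tested on simulated arrays.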

Additional observations from a re-analysis of the deposited data

How the results depend on the processing

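No gene was called between the gene-corrected and uncorrected lines, by limma, under any of 11 alternatives of background, scaling, filter, probe, fold or variance prior. With 1 array left out the count ran from 0 to 29. The 29 genes, called without line #7, are a comparison with line #4 alone, and the 1 gene called without line #7.1 was Mest (-3.25). Against line #7, 0 genes were called except with an intensity trend in the variance prior, which gave 1, Mest (-1.25, adjusted p = 1.9e-14 in limma), whose gene-corrected lines differ from each other. That comparison could not be fitted without a gene-corrected line or without line #7.

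Genes with the groups apart and at least 1.5-fold numbered 28, against 13 without background correction, 166 with an offset of 16, 56 with the authors' values plus 50 and 2 at 2-fold, and 35 to 260 with 1 array left out (260 without line #7, 89 without line #7.2). Of the 28, 26 were among the 56 and 16 among the 31 found with median scaling. The 7 genes at least 1.5-fold from line #7 in both gene-corrected lines became 2 without background correction, 158 with an offset of 16, 23 with median scaling (20 higher and 3 lower), 64 with the authors' values, 4 where all arrays had to exceed background and 0 at 2-fold. The cause of these changes was not tested.

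Of 119 named genes, the difference kept its sign in 1041 of 1043 values under 9 settings and in 462 of 466 with 1 array left out. Most of these genes were chosen with the groups apart, and in such genes leaving out 1 array cannot turn the sign. The count with 1 array left out therefore does not measure stability. Signs turned for Sox2 (-0.02 without line #4, up to 0.15 without another), Kdm5d (-0.17 without line #4, up to 0.82), Dusp14 (-0.14 without line #7, up to 0.71) and Il22ra1 (0.25 without line #7, down to -0.88), for Suv39h2 with the mean of its probes (-0.03) and for Rpl13a with median scaling (0.04). No paired analysis was possible, because both gene-corrected lines descend from line #7 and no array holds a gene-corrected derivative of line #4.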

Other observations

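Olig1, which encodes a bHLH factor of oligodendrocyte precursors, was bright in all 4 iPS cell lines and differed by 0.39 (95% interval 0.10 to 0.68), with 10.86 and 10.91 in lines #7.1 and #7.2, against 10.45 and 10.55 in lines #4 and #7, and 6.09 in OG2 ES cells. Its neighbour gene Olig2 was near background in the same arrays, at 5.99 and 6.09 in lines #7.1 and #7.2, against 6.30 and 6.53 in lines #4 and #7. Alpl, the alkaline phosphatase used to stain pluripotent colonies, had 8.76 and 8.54 in lines #7.1 and #7.2, against 8.19 and 8.17 in lines #4 and #7, and 9.00 in OG2 ES cells. Ubd, a ubiquitin-like protein that inflammatory cytokines induce, had 7.25 and 7.35 in lines #7.1 and #7.2, against 7.99 and 7.74 in lines #4 and #7. None of these genes was called by limma.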
